A study of Gallus gallus with 10 samples.

Results

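The genes described here are 10 members of the epidermal growth factor (EGF) system in chick choroid, out of 24355 genes in the deposited table. They are the ligand genes HBEGF, TGFA, AREG, EREG, BTC and NRG1, the receptor genes EGFR, ERBB2 and ERBB3, and ERRFI1, which encodes an intracellular inhibitor of the receptors. They were chosen by gene name, and where a name had several rows the row with the highest mean FPKM over the 10 libraries was to be kept. Each of the 10 names had 1 row, so that this mean decided nothing. The family was picked with earlier results of these data known, so the treatment differences below describe these libraries and are not independent evidence that the family responds.

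The tissue was choroid, the vascular and pigmented coat behind the retina, from chicks of the strain labelled Domesticus at day 15 after hatching. In the treated group 5 choroids were cultured with 1.5 mM PAPA-NONOate, a nitric oxide donor, for 24 hours at 37 °C under 5% CO2, and 5 choroids without it served as controls. The titles separate the groups, since the treatment text in the labels is the same for all samples. Whole tissue was homogenized, so every level is an average over all choroidal cells. The titles carry the replicate numbers 2, 3, 4, 5 and 8 in each group, with the letter R on treated and L on control samples. What the letters stand for is not given, and whatever they mark cannot be told apart from the treatment. The labels do not say that replicates were separate animals, and p-values then reflect only how far these samples differed from each other, which may be technical.

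EGF family ligands are made as membrane-anchored precursors, and proteases of the ADAM family release them from the cell surface. From work in mouse and human, HBEGF, TGFA, AREG, EREG and BTC all bind EGFR, though not necessarily EGFR alone. NRG1 (neuregulin) binds ERBB3 and ERBB4. ERBB2 has no known ligand of its own and acts as the partner of the other receptors, and ERBB3 has little kinase activity and depends on such a partner. Active receptors signal through RAS to the kinase ERK, and ERRFI1, also called MIG6, is made in response and blocks the EGFR kinase, which closes a feedback loop. The NRG1 and ERBB3 pair is best known for its role in Schwann cells and other neural crest derivatives, which populate the choroid as nerve sheath cells and melanocytes.

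Values are FPKM as the authors deposited them, fragment counts scaled to transcript length and to the size of the library. Levels of different genes within a library can thus be set side by side. Comparisons between libraries depend further on how the libraries are scaled, as the values below show. HBEGF stood first in every library, and its transcript level was 2.16-fold higher after PAPA-NONOate. ERRFI1 also rose. TGFA and the receptor genes EGFR, ERBB2 and ERBB3 did not pass the test, and AREG, EREG, BTC and NRG1 were too weakly expressed to enter it. The test was limma on log2(FPKM + 0.5), adjusted by the Benjamini-Hochberg method over the 11363 genes that reached 1 FPKM in 5 or more libraries, with a threshold of 0.05. Of the 10 members 6 passed this filter, and of these 2 were called, both higher. Over all tested genes 9.34% were called, 1.93% higher and 7.41% lower with PAPA-NONOate. The median tested gene had a log2 fold change of -0.18 as deposited. After median-ratio scaling, which divides each library by its typical ratio to the others, the median was -0.0036. The calls were then 791 higher and 749 lower, so the shares of called genes given here and below hold for values as deposited. Means are given ± SD over the 5 libraries of a group (n = 5). Differences are given as deposited, and after this scaling where it matters.

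Across the series, the depth relative to control replicate 2, estimated from the steps between low values, ran from 0.659 to 1, and a difference between the groups was not shown (p = 0.286, exact permutation test, two-sided). Summed FPKM ran from 394921 in treated replicate 2 to 605493 in control replicate 8 (p = 0.143 between the groups, exact permutation test). Fewer genes reached 1 FPKM in every treated library, 10973 to 11184 against 11318 to 11514 in controls (p = 0.00794, exact permutation test). Treated replicate 2 stood apart on the first principal component, at 65.2 against -10.0 to 24.7 for the other treated libraries. Treated replicate 5, at -10.0, lay next to the controls, which ran from -36.3 to -11.3. Without treated replicate 2 HBEGF had a log2 fold change of 1.11 and ERRFI1 of 0.61, and both kept their calls.

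**Figure D1:**
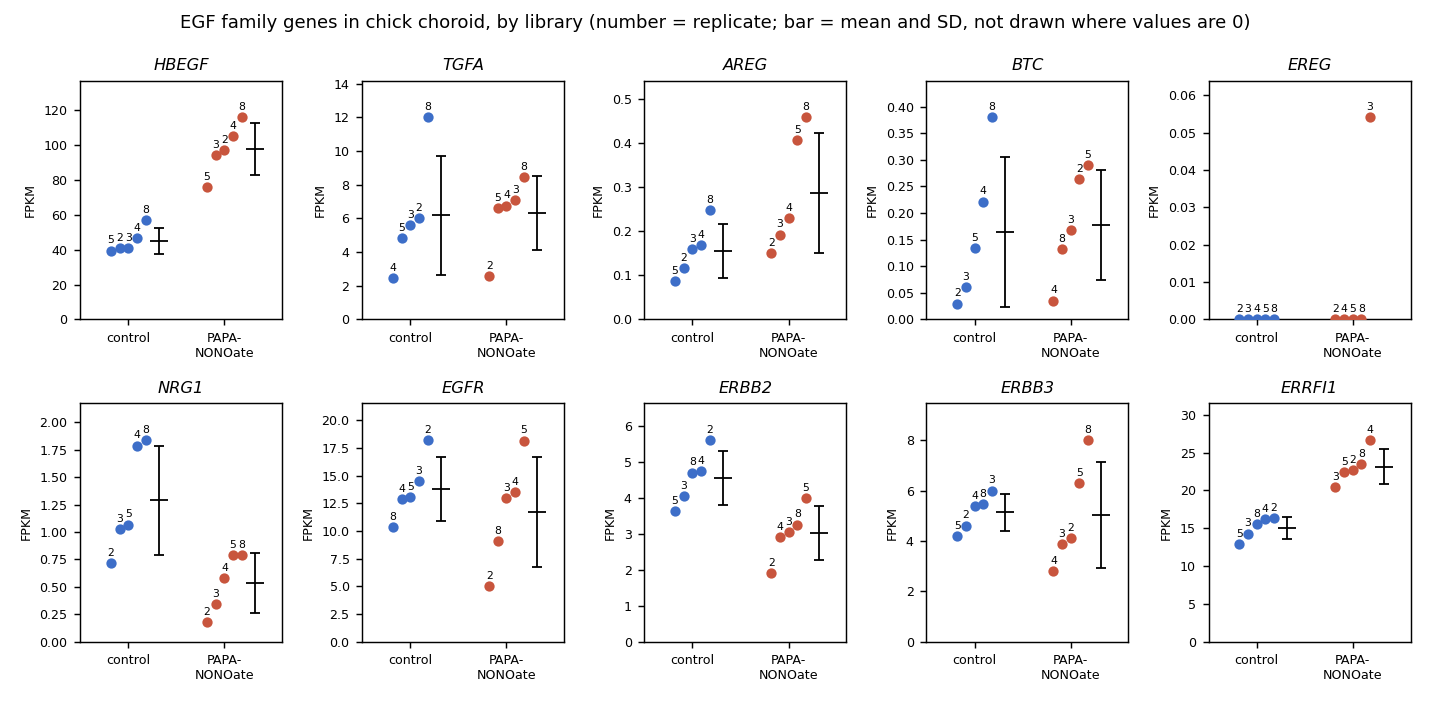
FPKM of the 10 genes in each library (vertical axes, linear and from 0, with a scale of their own per gene), control in blue and PAPA-NONOate in red; numbers are replicate numbers and black bars the mean and SD of 5 libraries. HBEGF and ERRFI1 separate the groups, while the treated libraries of EGFR spread from 5.03 to 18.2 FPKM and EREG is listed at 0 in 9 libraries.

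HBEGF (heparin-binding EGF-like growth factor, ENSGALG00000000949) was at 97.0, 94.2, 105, 75.7 and 116 FPKM in PAPA-NONOate replicates 2, 3, 4, 5 and 8. In control replicates 2, 3, 4, 5 and 8 it was at 40.8, 40.8, 46.7, 39.5 and 56.9 FPKM. Every treated library was above every control, with treated replicate 5 lowest in its group and replicate 8 highest in both. The means were 97.6 ± 14.9 against 44.9 ± 7.24 FPKM, and the log2 fold change was 1.11 (SE 0.14, limma adjusted p = 0.000827). On the linear scale this is 2.16-fold, with a 95% interval of 1.74 to 2.68. HBEGF ranked 92 of 11363 tested genes by log2 fold change, and its mean level was above that of 91.1% of them. After median-ratio scaling its log2 fold change was 1.30 (adjusted p = 0.000759), and over the other limma settings tried the adjusted p ran from 8.12e-05 to 0.00438. An exact two-sided Wilcoxon test per gene gave the smallest p it can with 5 against 5 (0.00794) and, adjusted over all genes, 0.0852, a test by which 0 genes of the table were called (2353 at an unadjusted p under 0.05, 3195 by limma).

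ERRFI1 (ENSGALG00000000535) was at 22.7, 20.4, 26.7, 22.5 and 23.5 FPKM in treated replicates 2, 3, 4, 5 and 8. The corresponding controls stood at 16.3, 14.3, 16.2, 12.9 and 15.6 FPKM. These groups did not overlap either, and both were narrow, with SDs of 2.29 and 1.44 FPKM around means of 23.1 and 15.1. The log2 fold change was 0.60 (SE 0.12, limma adjusted p = 0.00699), or 1.52-fold with a 95% interval of 1.28 to 1.80. It was 0.78 after median-ratio scaling (adjusted p = 0.00128), and adjusted p-values ran up to 0.0229 over the limma settings, with 0.0852 by the exact Wilcoxon test. HBEGF and ERRFI1 were the members whose treated libraries all lay above the controls, which 1.85% of tested genes did. The rise of HBEGF was larger than that of the inhibitor gene: the ratio of HBEGF to ERRFI1 ran from 3.37 to 4.94 in treated libraries and from 2.49 to 3.65 in controls, so that these ranges overlap at their ends.

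**Figure D2:**
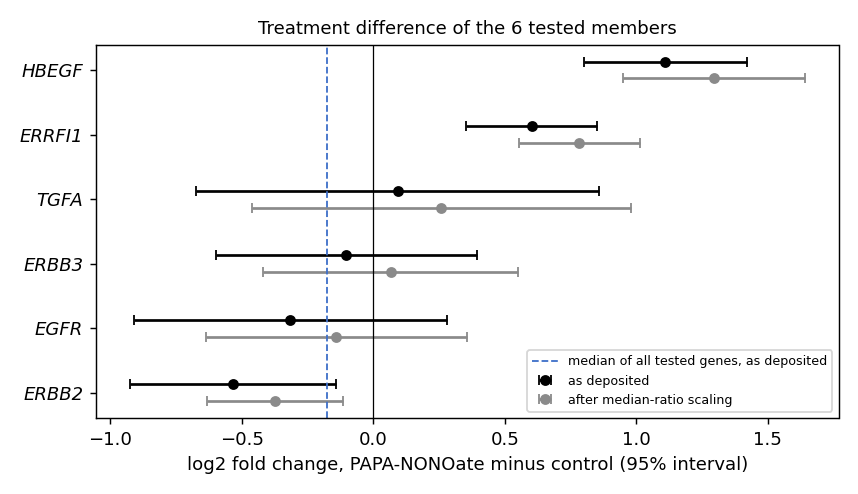
Log2 fold change with its 95% interval for the 6 genes that passed the filter (horizontal axis, PAPA-NONOate minus control), as deposited in black and after median-ratio scaling in grey; the dashed line is the median of all tested genes. HBEGF at 1.11 and ERRFI1 at 0.60 stand clear of 0 under both scales, and ERBB3 changes sign from -0.10 to 0.07.

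The other ligands of EGFR were at far lower levels. TGFA (transforming growth factor alpha, ENSGALG00000024024) stood at 2.58, 7.06, 6.75, 6.6 and 8.46 FPKM in treated replicates 2, 3, 4, 5 and 8. Control replicates 2, 3, 4, 5 and 8 had 6.01, 5.61, 2.45, 4.83 and 12.0 FPKM. The groups overlapped throughout, and the highest and the lowest library were both controls. In limma it differed by 0.09 on the log2 scale (95% interval -0.67 to 0.86, adjusted p = 0.888), so these libraries show neither a change nor its absence, and its sign turned without treated replicate 8 (-0.03) or control replicate 4 (-0.16).

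AREG (amphiregulin, ENSGALG00000010866) ranged from 0.15 to 0.459 FPKM with PAPA-NONOate and from 0.0877 to 0.248 in controls, with treated replicates 5 and 8 above every control. BTC (betacellulin, ENSGALG00000028608) ranged from 0.0353 to 0.290 and from 0.0295 to 0.380 FPKM, overlapping fully. EREG (epiregulin, ENSGALG00000010864) was listed at 0 in 9 libraries and at 0.0541 FPKM in treated replicate 3, where a 0 may stand for an estimate that failed. In the limma fit without the filter, over all genes above 0 in any library, the log2 fold change of AREG was 0.25 (SE 0.12, adjusted p = 0.266) and that of BTC 0.04 (adjusted p = 0.903). All values of these genes lie below the pseudocount of 0.5 FPKM, so that such fold changes are compressed, and the absolute sequencing depth behind them is unknown. In the RefSeq annotation of another chicken assembly (GRCg7b), EPGN, EREG and AREG lie side by side. EPGN, which encodes the further EGFR ligand epigen, was the most expressed of these neighbours, at 1.05 to 1.85 FPKM over the 10 libraries. Its log2 fold change was 0.17 (adjusted p = 0.547).

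Taking the 7 ligands of EGFR with a row in the table (HBEGF, TGFA, AREG, EREG, BTC, EGF and EPGN), their summed level was 85.2 to 127 FPKM in treated libraries and 46.1 to 71.2 FPKM in controls. HBEGF made up 88.9 to 95% of this sum in treated libraries and 79.9 to 90.9% in controls. The ligand RNA for EGFR in these choroids was thus mostly that of HBEGF in either group, and the rise of the sum followed HBEGF. Sums of RNA say nothing of how much ligand was released.

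NRG1 (neuregulin 1, ENSGALG00000015422) was a low transcript that stood lower in most treated libraries. Its values were 0.18, 0.341, 0.577, 0.786 and 0.791 FPKM in treated replicates 2, 3, 4, 5 and 8. In control replicates 2, 3, 4, 5 and 8 they were 0.716, 1.03, 1.79, 1.07 and 1.84 FPKM. Of the treated libraries 3 were below every control, and replicates 5 and 8 lay just above control replicate 2. An FPKM of 1 was reached in 4 libraries, all of them controls, which is 1 library short of the filter. Without the filter its log2 fold change was -0.79 (SE 0.25, 95% interval -1.33 to -0.24), with an adjusted p of 0.105 in limma.

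EGFR (ENSGALG00000038089), a receptor for HBEGF, had the second highest level among the ligand and receptor genes. It was at 5.03, 13.0, 13.5, 18.2 and 9.07 FPKM in treated replicates 2, 3, 4, 5 and 8. Control replicates 2, 3, 4, 5 and 8 stood at 18.2, 14.5, 12.9, 13.0 and 10.4 FPKM. Treated replicates 2 and 8 were below every control, while treated replicate 5 was level with the highest control. The means were 11.8 ± 4.96 and 13.8 ± 2.89 FPKM, and the log2 fold change of -0.32 (95% interval -0.91 to 0.28) did not pass (limma adjusted p = 0.477). It depended on treated replicate 2: without this library it was -0.06, and 0.05 when median-ratio scaling was used as well.

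ERBB2 (ENSGALG00000031529) was at 1.91, 3.04, 2.92, 4.0 and 3.26 FPKM in treated replicates 2, 3, 4, 5 and 8. Its control values, in the same order of numbers, were 5.61, 4.04, 4.75, 3.64 and 4.70 FPKM. Of the treated libraries 4 were below every control, and replicate 5 was above the lowest of them. The log2 fold change of -0.53 (SE 0.18, 95% interval -0.93 to -0.14) missed the threshold in limma (adjusted p = 0.0811). After median-ratio scaling it was -0.37 (adjusted p = 0.0586), and it passed with library weights (adjusted p = 0.0384) and without treated replicate 5 (adjusted p = 0.0350), within a range of 0.0350 to 0.205 over the limma settings.

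ERBB3 (ENSGALG00000033510) spread widely with treatment, at 4.10, 3.88, 2.81, 6.30 and 8.02 FPKM in treated replicates 2, 3, 4, 5 and 8. Controls were closer together, at 4.62, 6.01, 5.4, 4.20 and 5.47 FPKM. Treated replicates 5 and 8 exceeded every control and replicates 2, 3 and 4 were below every control, so the mean hid a spread in both directions. The SDs were 2.10 and 0.721 FPKM, and the log2 fold change was -0.10 (95% interval -0.60 to 0.40, limma adjusted p = 0.803). ERBB4, the remaining receptor of the family, was at 0.0508 to 1.15 FPKM and did not enter the test.

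Ordered by mean level in controls, HBEGF (44.9 FPKM) was followed by ERRFI1 (15.1), EGFR (13.8), TGFA (6.18), ERBB3 (5.14) and ERBB2 (4.55), then by NRG1 (1.29), BTC (0.165), AREG (0.156) and EREG (listed at 0). The control ranges of HBEGF and ERRFI1 did not overlap, nor did those of ERBB2 and NRG1 or of NRG1 and BTC. The neighbours from ERRFI1 to ERBB2 overlapped, as did BTC and AREG, so their order is not fixed by these libraries. With PAPA-NONOate the first 7 places were the same, and there ERRFI1 no longer overlapped EGFR. The means over all 10 libraries, which the row rule would have used, ran from 71.3 FPKM for HBEGF to 0.00541 FPKM for EREG.

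Ratios within a library do not change when all its values are divided by a common factor, as in median-ratio scaling. Quantile normalization, used among the alternatives, can change them. The ratio of HBEGF to EGFR was 19.3, 7.27, 7.78, 4.17 and 12.8 in treated replicates 2, 3, 4, 5 and 8. Controls had 2.23, 2.81, 3.62, 3.03 and 5.48 in the same order. Treated replicate 5, with the lowest HBEGF and the highest EGFR of its group, fell within the control range, and treated replicate 2 owed its ratio to a low EGFR value. The groups were at 10.3 ± 5.91 and 3.43 ± 1.25, a description without a test, since both genes belong to the chosen family.

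**Figure D3:**
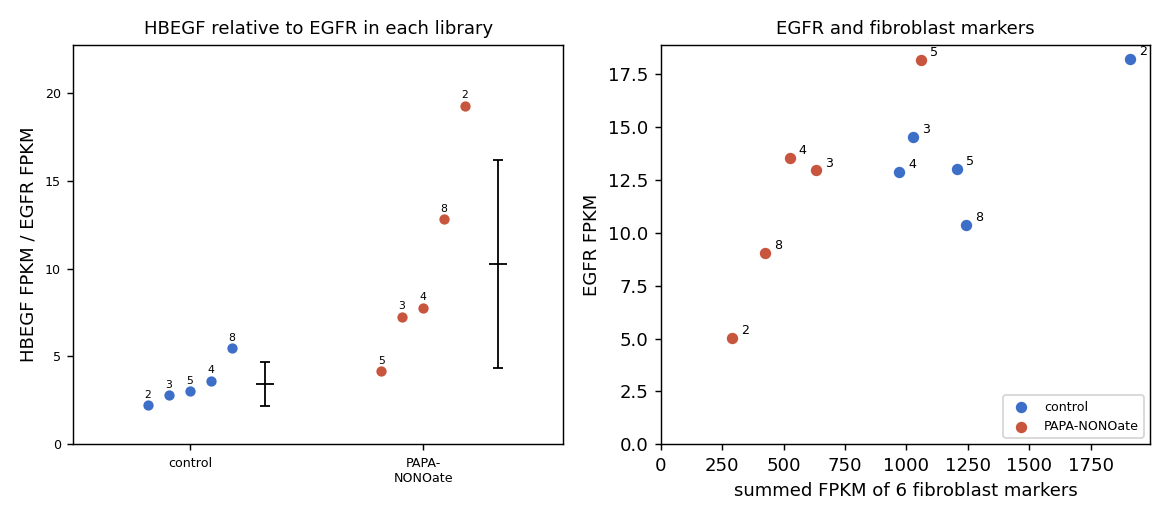
Left, the ratio of HBEGF to EGFR in each library (linear axis from 0, bars are mean and SD of 5 libraries), at 4.17 to 19.3 with PAPA-NONOate and 2.23 to 5.48 in controls. Right, EGFR (FPKM) against the summed FPKM of 6 fibroblast markers, with replicate numbers; treated replicate 2 is lowest and treated replicate 5 highest of the treated libraries on both axes. They were also lowest and highest of the treated libraries in summed FPKM over all genes.

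Cell type markers moved in the same comparison, and in bulk tissue fewer cells of a type and less RNA per cell cannot be told apart. Of 8 macrophage markers 4 fell, 0 rose and 4 did not pass, while 7.41% of all tested genes were called lower. Their median log2 fold change was -0.91, and their summed level was 135 to 374 FPKM in treated libraries and 410 to 773 in controls. The 4 were SPI1 (-0.76), C1QB (-1.48), MARCO (-1.19) and C1QA (-1.08), of which MARCO lost its call without treated replicate 3 or control replicate 8, and C1QA without treated replicate 2, 3 or 8 or control replicate 2, 3, 5 or 8. Of 6 fibroblast markers 3 fell, LUM (-1.84), DCN (-1.14) and COL3A1 (-1.57), 0 rose and 3 did not pass, with a median of -1.18. COL3A1 lost its call without treated replicate 2, 3, 4 or 8 or control replicate 2, 3, 5 or 8. Their sum was 289 to 1057 FPKM in treated libraries and 970.4 to 1911 in controls. HBEGF and ERRFI1 were higher while both sums were lower, and the part of cell composition in either rise was not tested.

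EGFR moved with the fibroblast sum among the treated libraries. Treated replicate 2 had the lowest fibroblast sum (289 FPKM) and the lowest EGFR, and treated replicate 5 had the highest sum of its group (1057 FPKM) and the highest EGFR. Among controls, replicate 2 had the highest sum (1911 FPKM) and the highest EGFR. Control replicate 8, with the lowest EGFR of its group, had the second highest sum (1242 FPKM). Treated replicates 2 and 5 were also lowest and highest of the treated libraries in summed FPKM over all genes (394921 and 535194). The same held for the summed adaptors and kinases of the receptor cascade (421 and 640 FPKM). Only the places of these libraries were compared, not how far apart they lay in each quantity. The part of fibroblasts in the EGFR values was not tested. For ERBB3, treated replicate 8 also had the highest summed level of Schwann cell markers other than ERBB3 (203 FPKM, against 90.8 to 147 in the other treated libraries and 106 to 160 in controls). Other libraries went the other way. Treated replicate 2 had the next highest sum of its group (147 FPKM), with ERBB3 at 4.10 FPKM, below every control. Control replicate 3 had the lowest control sum (106 FPKM) and the highest control ERBB3 (6.01 FPKM). The part of Schwann cells in the ERBB3 values was not tested. Of 7 tested Schwann cell markers, ERBB3 included, 0 were called. The log2 fold change of FOXD3 was -0.57 (adjusted p = 0.103), and it passed with library weights and with the replicate number as a block.

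Melanocyte markers spread widely within each group. Their summed level was 185, 16.1, 61.9, 19.8 and 10.7 FPKM in treated replicates 2, 3, 4, 5 and 8. Control replicates of the same numbers had 459, 49.8, 142, 19.1 and 22.8 FPKM. Replicates 2 and 4 were the highest in either group, and the treated sum was below that of the control with its number for 4 of 5 numbers. Of their 6 tested genes 0 were called without a block, with MLANA at -1.28 (adjusted p = 0.308) and TYRP1 at -1.68 (adjusted p = 0.328). Both passed with the replicate number as a block (adjusted p = 0.00796 and 0.00765). Among 8 endothelial markers TEK fell (-0.89, adjusted p = 0.0404) and 7 did not pass, while 7.41% of all tested genes were called lower. The call of TEK was lost in 14 of 23 other settings. These include leaving out treated replicate 2, 3 or 8 or control replicate 2, 4, 5 or 8. TEK was at 0.368 to 1.41 FPKM in treated libraries and 1.51 to 2.98 FPKM in controls. The controls, where it was high, meet the filter on their own, so its call is a description. Among 5 smooth muscle markers CNN1 rose (1.46, adjusted p = 0.00739) and 4 did not pass, while 1.93% of all tested genes were called higher. CNN1 was at 0.448 to 0.787 FPKM in controls and 1.53 to 5.82 FPKM in treated libraries. It met the filter only through the treated libraries, where it was high, so its call is a description. Markers of the retinal pigment epithelium and other epithelia reached at most 1.09 FPKM in any library, with RGR listed at 0 in all. Photoreceptor and retina markers reached at most 0.552 FPKM, and ARR3 was listed at 0 in all.

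The genes around the receptors were mostly level with the rest of the table. In the group of other ligands and receptors, 2 of 6 genes were tested and 0 called: EPGN, given above, and NRG4, a neuregulin that signals through ERBB4. NRG4 was at 1.56 ± 0.725 against 2.90 ± 0.407 FPKM. Its log2 fold change was -0.78 (SE 0.23, limma adjusted p = 0.0522), and it passed in 5 of the other settings, among them median-ratio scaling and leaving out treated replicate 5. EGF itself ranged from 0.267 to 0.595 FPKM and NRG2 from 0 to 0.199 FPKM.

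Of 10 tested genes of ligand shedding and processing, CD9 fell, 0 rose and 9 did not pass, with a median of -0.17. Over all tested genes 7.41% were called lower, so 1 of 10 is near the share of the table. CD9 is a membrane tetraspanin that in mammals associates with the HBEGF precursor on the cell surface. It was at 2.25 ± 0.989 against 7.82 ± 2.44 FPKM, and its treated range of 1.16 to 3.55 lay below the control range of 5.53 to 11.7. The log2 fold change was -1.63 (SE 0.26, limma adjusted p = 0.0028). How many tested genes lay wholly below the controls in this way was not counted. ADAM17, the protease best known for releasing EGFR ligands and named here for that role, was at 37.4 ± 5.60 and 38.9 ± 6.09 FPKM. Its log2 fold change was -0.05 (95% interval -0.36 to 0.25, adjusted p = 0.836).

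Among 10 genes of receptor attenuation, CBL fell, 0 rose and 9 did not pass, with a median of -0.14. This count is again near the 7.41% of all tested genes called lower. CBL encodes a ubiquitin ligase that marks active EGFR for breakdown. It was at 9.65 ± 2.36 against 14.3 ± 1.91 FPKM, and its log2 fold change was -0.57 (SE 0.16, limma adjusted p = 0.0473). This call stood at the threshold and was lost in 18 of 24 other settings (adjusted p up to 0.116). Among them were leaving out any single library other than treated replicate 5, and median-ratio scaling, where the log2 fold change was -0.39 (adjusted p = 0.05005). Of 17 tested adaptors and kinases of the cascade from receptor to ERK and AKT, 0 were called, with a median of -0.08. PIK3CA, which encodes a catalytic subunit of phosphoinositide 3-kinase, had a log2 fold change of -0.32 there (adjusted p = 0.206).

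**Figure D4:**
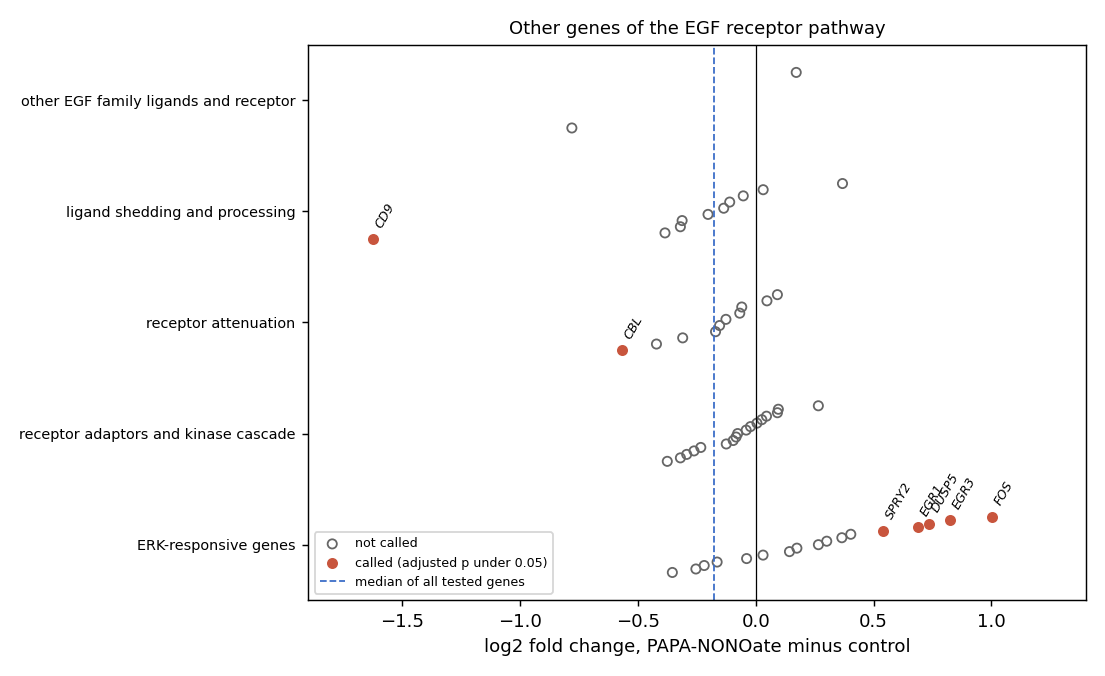
Log2 fold changes (horizontal axis, PAPA-NONOate minus control, as deposited) of the tested genes in 5 lists of the EGF receptor pathway; filled points are called at an adjusted p under 0.05 and the dashed line is the median of all tested genes at -0.18. Calls lie on the right in the ERK-responsive list, with FOS at 1.0, and on the left for CD9 (-1.63) and CBL (-0.57).

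Of 17 tested ERK-responsive genes 5 rose, 0 fell and 12 did not pass, while 1.93% of all tested genes were called higher as deposited. Their median log2 fold change was 0.27, against -0.18 for all tested genes. After median-ratio scaling 791 of the 11363 tested genes were called higher. The ERK-responsive list holds immediate early genes already known from earlier results to be higher in these libraries, so its count is a description. FOS was at 55.6 ± 10.8 against 27.4 ± 4.74 FPKM, and its log2 fold change was 1.0 (SE 0.16, limma adjusted p = 0.0028). The zinc finger factor genes EGR3 (0.83, adjusted p = 0.00563) and EGR1 (0.69, adjusted p = 0.015) rose as well. DUSP5, a nuclear phosphatase that inactivates ERK, rose by 0.73 on the log2 scale (adjusted p = 0.0251). SPRY2, a feedback inhibitor of receptor tyrosine kinase signalling named after its value was seen, rose by 0.54 (adjusted p = 0.0346). The treated and control ranges of both overlapped. DUSP5 lost its call when treated replicate 4 or 8 or control replicate 2, 3 or 8 was left out, with adjusted p-values up to 0.0645. SPRY2 lost it for treated replicates 3, 4 and 8 and control replicates 2, 3, 5 and 8, with values up to 0.0877. DUSP6, a cytoplasmic ERK phosphatase named here for its role, was at 87.7 ± 21.9 and 84.6 ± 15.2 FPKM, and its log2 fold change was 0.03 (95% interval -0.37 to 0.44, adjusted p = 0.932).

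The genes with the profile most like that of HBEGF were sought among all tested genes with a name, by the root mean square difference of centred log2 values over the 10 libraries. They were PTP4A1, a membrane-associated phosphatase gene (difference 0.148 on the log2 scale, where HBEGF itself varied by 0.590 around its mean), LURAP1L (0.193) and the interferon regulatory factor gene IRF1 (0.197). PTP4A1 was at 515 ± 109 against 234 ± 24.9 FPKM. Its log2 fold change was 1.12, and those of LURAP1L and IRF1 were 0.94 and 0.90. The profile of HBEGF holds its treatment difference, so genes picked for likeness to it rise by selection. For EGFR, the closest profiles were those of the fibroblast growth factor receptor gene FGFR2 (0.0878), the endocytic receptor gene LRP1 (0.127) and ARHGAP6 (0.143), where EGFR varied by 0.488. FGFR2 was at 20.7 ± 8.65 against 25.0 ± 5.50 FPKM and did not pass (log2 fold change -0.36, adjusted p = 0.434), and LRP1 and ARHGAP6 also did not pass (-0.43 and -0.43). The libraries of a profile share their depth and cell makeup, so likeness over them is a description.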

How the data were processed

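The authors deposited 1 table of FPKM for 10 libraries of poly(A)-selected RNA, made with a directional kit from 100 ng of total RNA, per the labels' protocols. Cufflinks and SAMtools were used with the build GRCg6a, per the submitters' processing notes. Their versions, like the aligner and the annotation, were not given in the sources used here. In all 14 values of 10 genes stand at 999999999 and were treated as missing, none of them in a named gene; 6 of these genes were tested on the libraries left. Samples were grouped by title. FPKM give no absolute depth, so there are no counting intervals.

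Log2(FPKM + 0.5) was fitted with limma 3.58.1 (R 4.3.3, mean-variance trend, 8 residual and 4.83 prior degrees of freedom), with Benjamini-Hochberg adjustment over 11363 genes. The fit was also run on simulated data with independent normal noise per gene at its control SD. The simulation held no scale difference between libraries and no outlying library, so it does not check the test against these. Correlations between libraries of a group were 0.930 to 0.978. The members and the 13 gene lists (126 symbols, 115 with a row) were chosen with earlier results of these data known. Named genes were the members, up to 4 called genes per list with the smallest adjusted p (otherwise up to 2), and the 3 most similar profiles to HBEGF and to EGFR; genes withheld for evaluation are not reported here. No sequences were given for these genes in the tables used here, so none are printed. Alternatives were other pseudocounts (0.1, 1), filters (none, 5 FPKM) and scalings, weights per library, a block for the replicate number, each library left out, limma without trend or with robust estimates, and an exact Wilcoxon test. Median-ratio scaling without treated replicate 2 was added after seeing the data.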

Additional observations from a re-analysis of the deposited data

Results flagged for a closer look

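EREG in PAPA-NONOate replicate 3 was at 0.0541 FPKM, where the other 4 treated libraries are listed at 0. It was flagged because its gap to the nearest library equals the whole range of the group (the critical share for 5 samples is 0.71). With the other 4 libraries at 0, any value above 0 gives this share, so the flag does not show that the library differs. In all 25 groups of member values and ratios were examined in this way, and chance marks about 1 in 20.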

How the results depend on the processing

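HBEGF and ERRFI1 kept direction and call in all 23 limma alternatives, with log2 fold changes of 1.05 to 1.30 and 0.55 to 0.78, and lost the call in the exact Wilcoxon test, which called 0 members and 0 genes. The count of called members was 2 to 3 with each library left out. Over the table, the 1061 calls became 605 with the filter at 5 FPKM, 1799 with library weights, 1891 with median-ratio scaling and the replicate block, 1676 with quantile normalization and the block, and 604 to 1813 with each library left out (604 without control replicate 2, 1813 without treated replicate 5). Calls as deposited split into 219 higher and 842 lower, against 791 and 749 after median-ratio scaling and 733 and 680 after quantile normalization. The sign of ERBB3 turned after median-ratio scaling (0.066, also with the block), quantile normalization (0.16, also with the block), median-ratio scaling without treated replicate 2 (0.039), and it ran from -0.28 to 0.062 with each library left out (0.062 without treated replicate 4). That of TGFA ran from -0.16 to 0.36 with each library left out and turned without treated replicate 8 (-0.029) or control replicate 4 (-0.16), and those of EGFR (0.045) and FGFR2 (0.019) with median-ratio scaling without treated replicate 2. The cause was not tested. With the replicate number as a block 890 genes and 2 members were called, FOXD3, MLANA and TYRP1 passed, and TEK, C1QA and CBL lost their calls. Deviations of same-numbered libraries from their group means correlated at -0.0229 to 0.303, over 0.1 in 3 of 5 numbers. Of the treated libraries 3 of 5 were closest to their own number, as were 3 of 5 control libraries. The labels do not state that the numbers pair samples, so the block was kept as an alternative. These values do not settle whether the numbers mark pairs. AREG, EREG, BTC and NRG1 had a value only without the filter, and no name had several rows to sum. Unknown depth limits what can be said of these 4 genes.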
